A study of Nothobranchius furzeri with 6 samples.

Results

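The codons analysed here are the 8 that are read by tRNAs able to carry queuosine: TAC and TAT for tyrosine, CAC and CAT for histidine, AAC and AAT for asparagine, and GAC and GAT for aspartate. They were taken from ribosome profiling of killifish liver, in which each count is the number of ribosome footprints assigned to a codon of a transcript. A position belonged to the set when its codon was 1 of the 8, when it lay at least 20 codons from both ends of the coding sequence, and when its transcript had over 0.5 reads per codon and over 64 internal reads in each age with libraries summed. This rule left 369225 positions of 2513258 internal positions, or 14.7%, in 6335 covered transcripts, of which 6333 held a member. TAC contributed 50498 positions and TAT 22008, CAC 42862 and CAT 20524, AAC 70268 and AAT 27256, and GAC 82624 and GAT 53185. The rule used sequence, place and coverage, and no pause score.

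Livers of the MZM-0410 strain of Nothobranchius furzeri, a short-lived fish, were profiled at 5 weeks post hatching (young), 12 weeks (adult) and 39 weeks (old). Each age had 2 libraries, each made from pooled livers of males and females in equal numbers, so single fish and sexes were not resolved. No p-value here measures the spread between single fish. At most it measures the spread between these pools. The study's lysis buffer contained cycloheximide, an elongation inhibitor, in all groups. The labels name no allele or agent that differed between ages. Fewer hepatocytes and less RNA per hepatocyte cannot be told apart in such pools, and liver markers were not analysed here because no transcript identifier could be paired with a gene name.

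Queuosine is a modified guanosine found at the wobble base, the first base of the anticodon, in the tRNAs for tyrosine, histidine, asparagine and aspartate. Each of these tRNAs reads both codons of its residue, one ending in C and the other in T (U in the mRNA), which differ only in the base that meets the modified position. Vertebrates do not make the queuine base themselves. They take it up from food and gut microbes and a tRNA-guanine transglycosylase exchanges it into the tRNA, while in the tyrosine and aspartate tRNAs a sugar is then added. The modification itself was not measured in these libraries. A ribosome holds the incoming aminoacyl-tRNA in its A site, the peptidyl-tRNA in its P site and the leaving tRNA in its E site, so the same codon was read in each of the 3 sites. The pause score is the number of reads at a position divided by the mean reads per codon of the internal part of that transcript, and 1 is therefore the mean of the transcript.

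To show what such positions look like, the position with the highest mean A-site pause score over the 6 libraries was taken for each codon, among those with over 20 reads in every library and with no transcript used more than once. Each is shown with 4 codons on either side, and the capitals mark the member codon.
tyrosine TAC, codon 141 of 514: attctggttgatTACggctcaacctgg
tyrosine TAT, codon 192 of 492: gctctgctggcgTATgtcttcacgctg
histidine CAC, codon 292 of 517: ggagtcacgatgCACtctctagccacg
histidine CAT, codon 177 of 231: catgagctgctcCATgctctgggcttc
asparagine AAC, codon 55 of 478: tcctccgtcatgAACcgactgaggatc
asparagine AAT, codon 28 of 393: ttctgggttggaAATgctaagcaggct
aspartate GAC, codon 24 of 437: tttctgatggctGACaccatggggccc
aspartate GAT, codon 84 of 242: tgtggtgctcctGATgcccctctccca

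At the AAT codon the pause score was 98.8 and 94.0 in the young pools, 96.2 and 99.6 in the adult pools, and 115 and 99.8 in the old pools, so both old libraries lay above the other 4, old replicate 2 by little. The CAC codon had pause scores of 76.5, 60.3, 47.8, 63.6, 50.7 and 63.0 in young, adult and old libraries in replicate order, from 743 to 1869 reads. At the CAT codon the young pools had 28.6 and 30.1, the adult pools 24.8 and 23.4, and the old pools 15.8 and 12.3, so that old lay below the other ages. This is 1 position picked for its height. Over all 61 codons the mean share of A-site positions above a pause score of 6 was also lowest in old pools. It was 1.17% there, against 1.95% in young and 2.18% in adult pools at equal depth. The CAC and AAC windows place an ATG codon in the P site. At the remaining codons the mean over the 6 libraries was 15.6 (TAT), 16.2 (AAC), 31.7 (GAT), 44.5 (TAC) and 68.7 (GAC), and these maxima were far from typical, since at equal depth between 0.89% and 4.95% of the positions of a codon exceeded a pause score of 6 at the A site in any library.

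Old replicate 2 was the shallowest library with 22617158 footprints, and the other 5 held 37104582 to 39738019. The 10 most abundant transcripts took 25.2% to 62.3% of a library's reads, with the highest share in adult replicate 2. This library also had the highest share of positions over a pause score of 6 among all 61 sense codons at equal depth (2.84%, against 1.14% to 2.20% in the other libraries at the A site), and it stood apart at the P site below. Density was 5.59 times the internal mean at the start codon (range over libraries 5.25 to 6.21) and 3.46 at the codon after it. It was 0.512 at the stop codon, with 1.38 at the codon just before the stop. From these densities the deposited codon was taken as the P site, the next as the A site and the one before as the E site. The spread of the mean log2 pause score over 61 codons was largest at the deposited codon (SD 0.281, against 0.231 at the next and 0.196 at the one before). This spread cannot by itself tell the P site from the A site. The study's methods describe an offset to the A site, and the assignment was not tested further. The reading with the deposited codon as the A site was therefore computed as an alternative and moves every site by 1 codon.

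At the A site, C-ending codons had higher mean pause scores than T-ending codons for tyrosine and histidine, and lower ones for aspartate. The log2 ratio of C- over T-ending for tyrosine was 0.27 and 0.25 in the young pools, 0.19 and 0.10 in the adult pools, and 0.088 and 0.082 in the old pools. TAC was thus higher than TAT in 6 of 6 libraries, and the old libraries lay below all the young and adult ones. For histidine the ratio was 0.14 and 0.13 in the young pools, 0.065 and 0.16 in the adult pools, and 0.087 and 0.0055 in the old pools. All 6 values favoured CAC, but the adult libraries spanned the young ones and old replicate 2 was close to 0.

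For asparagine the A-site values were 0.030 and 0.018 in the young pools, 0.023 and 0.0041 in the adult pools, and -0.037 and -0.045 in the old pools, with C higher in 4 of 6 libraries. For aspartate they were -0.013 and -0.023 in the young pools, -0.013 and -0.059 in the adult pools, and -0.072 and -0.092 in the old pools, with T higher in 6 of 6. The mean of the 3 ages was tested against 0 with limma, in 1 fit over all 16 pairs of codons that differ only in a final C or T. It was 0.16 (95% interval 0.14 to 0.19, adjusted p = 4.7e-15) for tyrosine, 0.099 (0.071 to 0.13, adjusted p = 1.2e-08) for histidine and -0.045 (-0.073 to -0.018, adjusted p = 0.0029) for aspartate. The asparagine pair did not pass the test, at -0.0011 (-0.029 to 0.026, adjusted p = 0.99).

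Thus 3 of the 4 pairs were called at the A site, beside 68.8% of all 16 pairs and 8 of the 12 pairs that queuosine tRNAs do not read. Of the 8 other called pairs 5 were higher with C, up to 0.25 for arginine CGC over CGT, and 3 were higher with T. The A-site ratios of the 4 queuosine pairs lay inside the range of the other 12, which ran from -0.10 to 0.25. In these fits limma drew all pairs to 1 shared standard error (0.014 for a mean, 0.034 for an age difference at the A site), and pairs measured in the same 6 libraries are not independent, so the p-values are smaller than 2 pools per age alone could give. An exact permutation test of 2 against 2 libraries cannot go below p = 0.333.

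**Figure D1:**
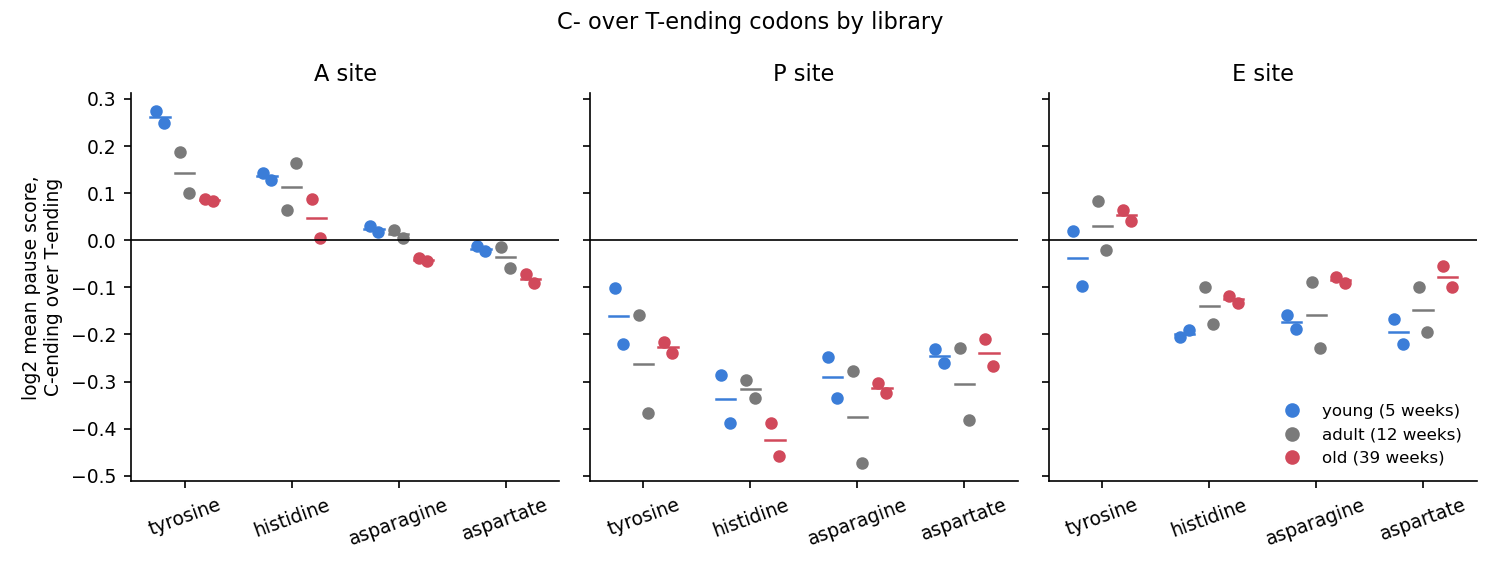
Each point is a library and each short bar the mean of the 2 libraries of an age; the vertical axis is log2 of the mean pause score of C-ending over T-ending codons, for the 4 residues at the A, P and E site. At the P site all 24 points lie below 0, and at the A site the tyrosine points fall from 0.27 and 0.25 in young to 0.088 and 0.082 in old libraries.

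The levels behind these ratios differed by residue. Aspartate codons were among the highest of the 61 sense codons at the A site, with GAT at rank 2 (mean pause score 1.32 to 1.45 over libraries) and GAC at rank 3 (1.31 to 1.395). TAC, at rank 15, was 1.17 and 1.25 in the young pools, 1.09 and 0.976 in the adult pools, and 1.03 and 1.03 in the old pools, so that both young libraries lay above every other library. TAT, at rank 29, was 0.969 and 1.05 in the young pools, 0.959 and 0.910 in the adult pools, and 0.971 and 0.976 in the old pools, with overlapping ages. Asparagine codons were near the transcript mean (AAT 1.01 to 1.09, AAC 1.02 to 1.08), and histidine codons were at or below it (CAC 0.934 to 1.01, CAT 0.838 to 0.957).

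**Figure D2:**
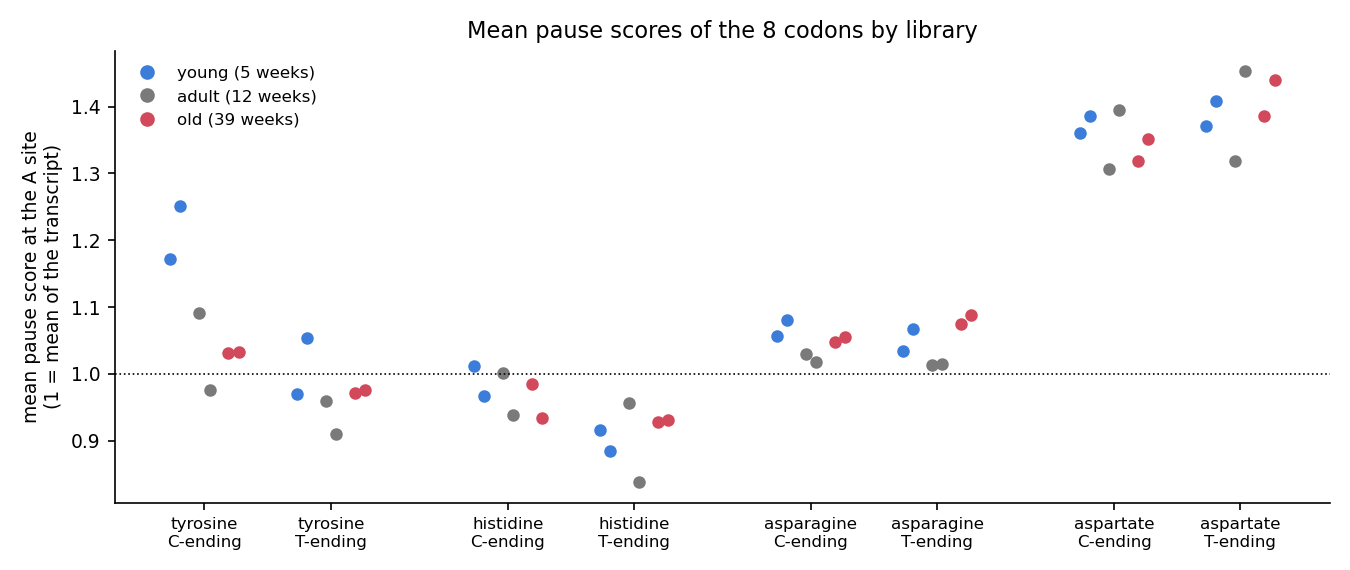
Each point is the mean A-site pause score of a codon in a library, with colours for the 3 ages and a dotted line at the transcript mean of 1. For C-ending tyrosine codons the 2 young libraries (1.17 and 1.25) stand above the other 4, and both aspartate codons lie between 1.31 and 1.45.

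At the P site, T-ending codons had higher mean pause scores than C-ending codons in all 4 residues and all 6 libraries, 24 of 24 values. Tyrosine log2 ratios were -0.10 and -0.22 in the young pools, -0.16 and -0.37 in the adult pools, and -0.21 and -0.24 in the old pools. Histidine ratios were -0.29 and -0.39 in the young pools, -0.30 and -0.33 in the adult pools, and -0.39 and -0.46 in the old pools. These were the lowest ratios on average, with CAT 1.28 times CAC (0.977, 0.956, 1.04, 0.978, 1.11 and 1.10 for CAT in young, adult and old libraries, against 0.801, 0.731, 0.850, 0.776, 0.845 and 0.799 for CAC).

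Asparagine ratios at the P site were -0.25 and -0.33 in the young pools, -0.28 and -0.47 in the adult pools, and -0.30 and -0.32 in the old pools. Aspartate ratios were -0.23 and -0.26 in the young pools, -0.23 and -0.38 in the adult pools, and -0.21 and -0.27 in the old pools. Adult replicate 2 was the lowest of the 6 libraries in tyrosine, asparagine and aspartate, and the ages overlapped in all of these residues. In limma the mean of the ages was -0.22 for tyrosine (adjusted p = 2.3e-12), -0.36 for histidine (1.5e-19), -0.33 for asparagine (2.7e-18) and -0.26 for aspartate (4.1e-15). All 4 pairs were called, beside 75% of the 16 pairs. Of the 12 other pairs 8 were called, all 8 with T higher, from -0.11 for threonine ACC over ACT to -0.32 for serine AGC over AGT.

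At the E site T-ending codons were again higher for histidine, asparagine and aspartate, in 6 of 6 libraries each. The log2 ratio ran from -0.21 to -0.10 for histidine (mean of ages -0.15, adjusted p = 1.2e-10), from -0.23 to -0.079 for asparagine (-0.14, adjusted p = 1.4e-09) and from -0.22 to -0.056 for aspartate (-0.14, adjusted p = 1.4e-09) in limma. Tyrosine did not pass the test, with values of 0.021 and -0.097 in the young pools, 0.082 and -0.021 in the adult pools, and 0.065 and 0.042 in the old pools (mean 0.015, 95% interval -0.021 to 0.052, adjusted p = 0.40). The call of 3 of the 4 pairs stands beside 81.2% of the 16 pairs, and 10 of the 12 others were called, all with T higher.

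Read across distances from 15 codons before to 15 codons after the deposited position, the ratio departed from 0 within a few codons of the ribosomal sites and was near 0 beyond them. At distances of 8 to 15 codons on either side, the 384 values over residues and libraries lay between -0.061 and 0.063 with a median of -0.011. Beyond the 3 sites, tyrosine was higher with C at 2 codons before the P site in every library (0.18, range 0.13 to 0.27), as was asparagine (0.12, range 0.087 to 0.19). Aspartate was 0.15 (range 0.13 to 0.19) at 4 codons before the P site and -0.18 at 3 codons before it, where the 2 old libraries (-0.046 and -0.088) lay above the young and adult ones (-0.25 to -0.21). Histidine was -0.14 (range -0.18 to -0.079) at 3 codons before it. Downstream, tyrosine was higher with C in every library, with 0.080 (range 0.036 to 0.12) at 2 codons after the P site. At 5 codons after it tyrosine was 0.086 (range 0.029 to 0.14). Aspartate was -0.10 (range -0.12 to -0.089) at 4 codons after it. Ages also lay apart at other distances outside the 3 sites. At 3 codons before the P site tyrosine was -0.11 and -0.097 in the young pools and 0.092 and 0.021 in the old pools. At 5 codons before it asparagine was 0.15 and 0.21 in the young pools and 0.014 and 0.015 in the old pools. At 2 codons after it tyrosine was 0.12 and 0.095 in the young pools and 0.059 and 0.036 in the old pools. At 5 codons after it tyrosine was 0.14 and 0.098 in young and 0.077 and 0.029 in old pools. A lower tyrosine ratio in old than in young libraries was thus not confined to the A site. Age differences at these distances were not tested. The 12 other pairs had a median of -0.14 at the P site and of -0.00085 at the A site.

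**Figure D3:**
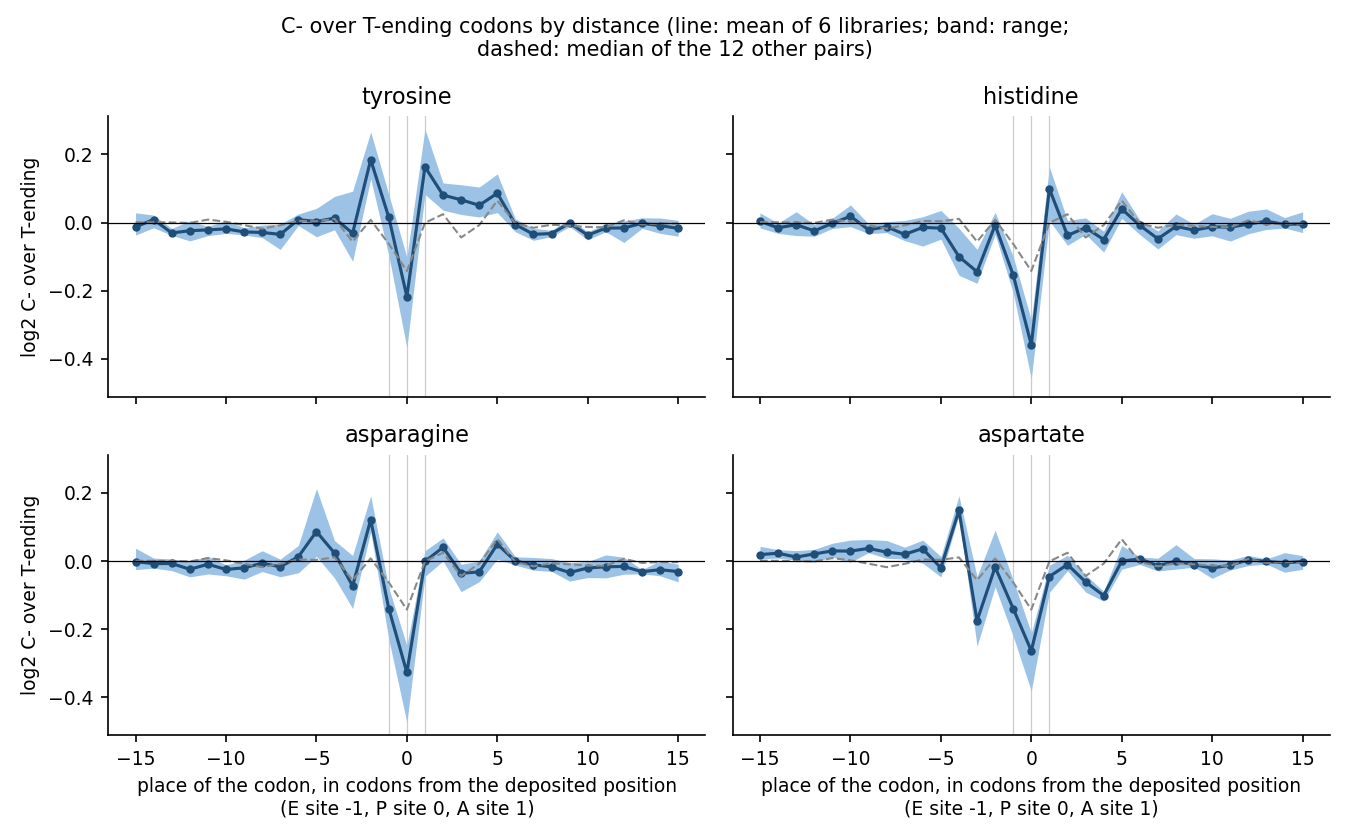
The horizontal axis is the place of the codon in codons from the deposited position (E site at -1, P site at 0, A site at 1) and the vertical axis is log2 C- over T-ending. The line is the mean of 6 libraries, the band their range and the dashed line the median of the 12 other pairs, and the lowest point of each residue is the P site, from -0.22 for tyrosine to -0.36 for histidine.

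The A-site ratio was then compared between ages, which asks whether C- and T-ending codons of a residue changed unequally. The ratio of tyrosine was lower in old than in young livers by 0.18 on the log2 scale (difference -0.18, 95% interval -0.24 to -0.11, adjusted p = 5.4e-05 in limma), and each old library was lower than each young one. The histidine difference was -0.089 (-0.16 to -0.021, adjusted p = 0.043), again with old libraries below young ones. Asparagine (-0.065, -0.13 to 0.0022) and aspartate (-0.064, -0.13 to 0.0034) did not pass the test, both with an adjusted p of 0.14, and in both residues the 2 old libraries lay below the 2 young ones. Thus 2 of the 4 pairs were called, beside 25% of the 16 pairs, among them arginine CGC over CGT (-0.14) and cysteine TGC over TGT (-0.11). In the 12 other pairs both old libraries also lay below both young ones, except for phenylalanine and leucine. This order was therefore not particular to the queuosine pairs.

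All 16 pairs had a lower A-site ratio in old than in young livers, with a median of -0.059 over the 16 and of -0.056 over the 12 others. The tyrosine difference exceeded that of every other pair (lowest of the 12 others -0.14), while histidine, asparagine and aspartate lay within their range. With replicate number as a block in limma, tyrosine kept its call (adjusted p = 0.022), histidine lost it (0.16), and asparagine and aspartate gained it (both 0.047). With the deposited codon read as the A site, neither tyrosine (-0.066) nor histidine (-0.087) was called (limma adjusted p = 0.71 each). The histidine difference was -0.048 (adjusted p = 0.60) without old replicate 2, and its call was lost too without young replicate 1 (-0.082, 0.18) or young replicate 2 (-0.096, 0.13).

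Adult livers differed from young ones in the tyrosine ratio alone among the 4 pairs (-0.12, 95% interval -0.19 to -0.050, adjusted p = 0.016 in limma), beside 12.5% of the 16 pairs. This call was lost with the replicate block (adjusted p = 0.11) and without young replicate 1 (-0.11, 0.17), young replicate 2 (-0.13, 0.083) or adult replicate 2 (-0.075, 0.44). The differences of histidine (-0.021), asparagine (-0.011) and aspartate (-0.018) did not pass. With the deposited codon read as the A site, the tyrosine difference was -0.10 and was not called (limma adjusted p = 0.54). Old vs adult, no pair of the 16 was called at the A site (0%), with tyrosine at -0.058 (-0.13 to 0.0090) and 2 of the 16 at an unadjusted p under 0.05, 1 of them a queuosine pair (histidine, -0.068).

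**Figure D4:**
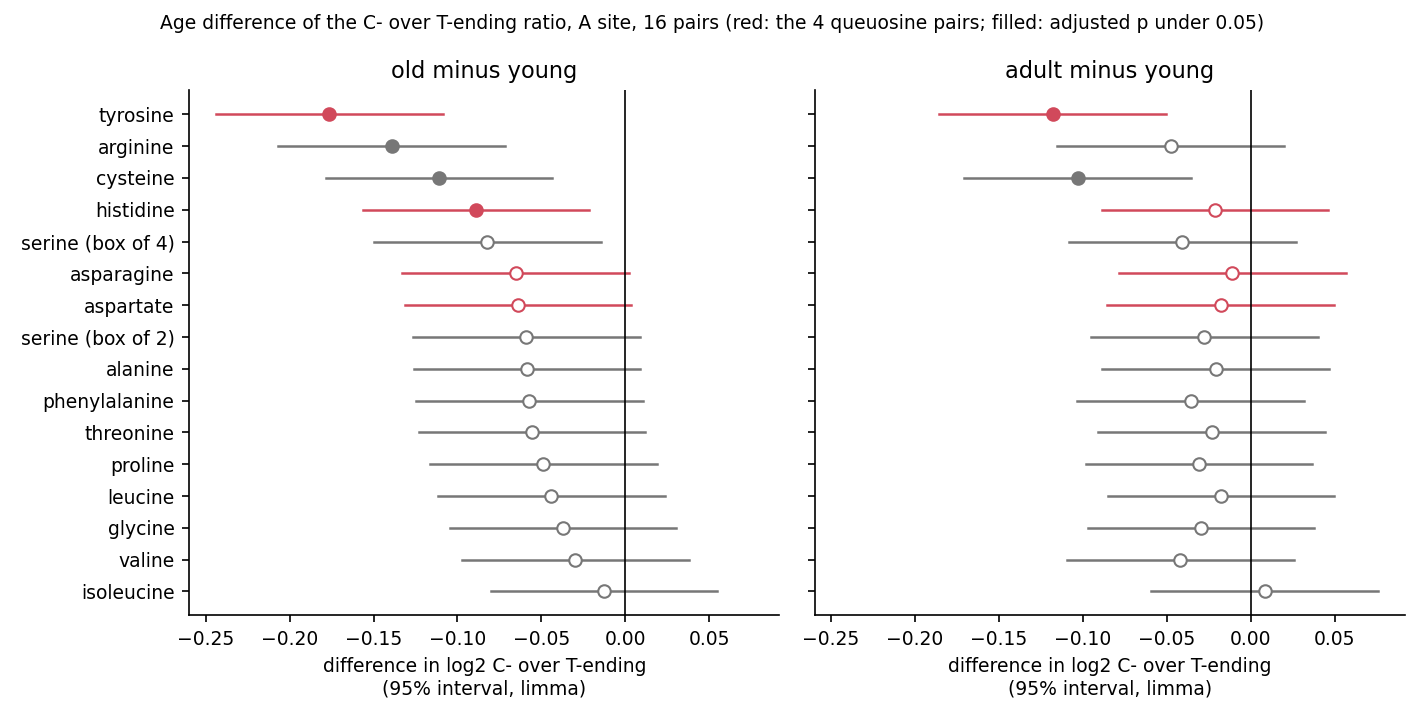
Points give the difference in log2 C- over T-ending at the A site, old minus young and adult minus young, for 16 pairs ordered by the former, with 95% limma intervals. Red marks the 4 queuosine pairs and filled points an adjusted p under 0.05; all 16 points lie below 0 in old minus young, and tyrosine lies lowest at -0.18.

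At the P and E sites no age difference of a queuosine pair passed the test in any of the 3 comparisons, as for all 16 pairs (0%). At the P site old minus young was -0.066 for tyrosine, -0.087 for histidine, -0.023 for asparagine and 0.0075 for aspartate, with intervals of about 0.11 on either side of each (limma standard error 0.055), and 0 of the 16 had an unadjusted p under 0.05. At the E site the sign was the opposite of that at the A site, and all 16 pairs had a higher ratio in old livers (median 0.043). Tyrosine was 0.091, histidine 0.073, asparagine 0.089 and aspartate 0.12, the last with an adjusted p of 0.18. Of these, 3 had an unadjusted p under 0.05, out of 3 such pairs among all 16. Aspartate passed with the replicate block (limma adjusted p = 0.015), and it also passed in limma with the deposited codon read as the A site.

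Tested codon by codon over all 61 sense codons, TAC was called at the A site in old vs young and in adult vs young, the single codon called in each (1.64%). Its log2 difference was -0.23 (95% interval -0.32 to -0.14) in both comparisons, with limma adjusted p of 5.4e-05 each, while TAT changed by -0.054 (adjusted p = 0.83) and -0.11 (0.21). The values of TAC rested on young replicate 2, the highest library. Without it the difference was -0.18 in both comparisons (adjusted p = 0.097 each), and without adult replicate 2 it was -0.15 (adjusted p = 0.089) in adult vs young. The call in old vs young was also lost when pause scores above 6 were set to 6 (-0.19, adjusted p = 0.37). Old vs adult, TAC did not differ (-0.000070, interval -0.089 to 0.089), and 0 of 61 codons were called (0%), with 7 at an unadjusted p under 0.05, of which 1 was a queuosine codon, AAT (0.093).

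No codon was called at the P site in any comparison (0%). In old vs young 7 of 61 codons had an unadjusted p under 0.05, among them CAT, which was 0.977 and 0.956 in young against 1.11 and 1.10 in old libraries (log2 difference 0.19, adjusted p = 0.20 in limma). At the E site GAT was lower in old than in adult livers (0.883 and 0.922 against 0.968 and 1.02, log2 difference -0.14, adjusted p = 0.011), 1 member among 18% of the codons called there. This call was lost without adult replicate 2 (-0.10, adjusted p = 0.53), old replicate 1 (-0.11, 0.27) or old replicate 2 (-0.17, 0.15). In old vs young 8.2% and in adult vs young 3.28% of the codons were called at the E site, none of the 8 among them. At an unadjusted p under 0.05 there were 3 of the 8 in old vs young, beside 13 of the 61. In adult vs young there were 0 of the 8, beside 10 of the 61.

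Single positions were compared by Fisher's exact test on the reads of the 2 libraries of an age summed, with Benjamini-Hochberg adjustment over all internal positions. This test takes in counting error but not the spread between pools. At the A site 1528 of 368354 member positions were increased in old vs young (0.415%, background 0.366%) and 2294 were decreased (0.623%, background 0.438%). At this site TAC stood furthest from the background, with 118 increased (0.234%) and 522 decreased (1.04%) of 50402 positions, while TAT had 83 (0.378%) and 135 (0.616%) of 21933. In aspartate GAC had 351 increased and 521 decreased (0.426% and 0.632%), and GAT 346 and 304 (0.652% and 0.573%). In asparagine AAC had 0.358% increased and 0.541% decreased, against 0.655% and 0.533% for AAT, and the histidine codons were close to the background (0.281% to 0.396% increased, 0.454% to 0.456% decreased). At the P site 0.423% of members were increased and 0.464% decreased, with 0.922% of TAT and 0.741% of CAT increased. At the E site these shares were 0.363% and 0.460%, with 0.793% of TAT decreased.

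At the A site in adult vs young 1284 member positions were increased (0.349%, background 0.34%) and 2064 decreased (0.560%, background 0.386%), with 97 and 453 at TAC. In old vs adult 1286 were increased (0.349%, background 0.253%) and 1327 decreased (0.360%, background 0.296%), with TAC at 159 and 220. Leaving out young replicate 2 lowered the old vs young counts to 805 and 1402 and the adult vs young counts to 620 and 1179. Leaving out old replicate 1 lowered the decreased count to 1228 in old vs young and to 809 in old vs adult. The shares called over all positions without these libraries are not given here, so these falls cannot be called particular to the members. In edgeR's quasi-likelihood test, which takes in the spread between libraries, no position was called in any of the 3 comparisons, of 232531 positions with at least 10 reads in at least 2 libraries. At an unadjusted p under 0.05 it held 3694 of 39457 members in old vs young (9.36%, against 10.1% of all positions), 3261 (8.26%, against 8.75%) in adult vs young and 2463 (6.24%, against 6.26%) in old vs adult.

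**Figure D5:**
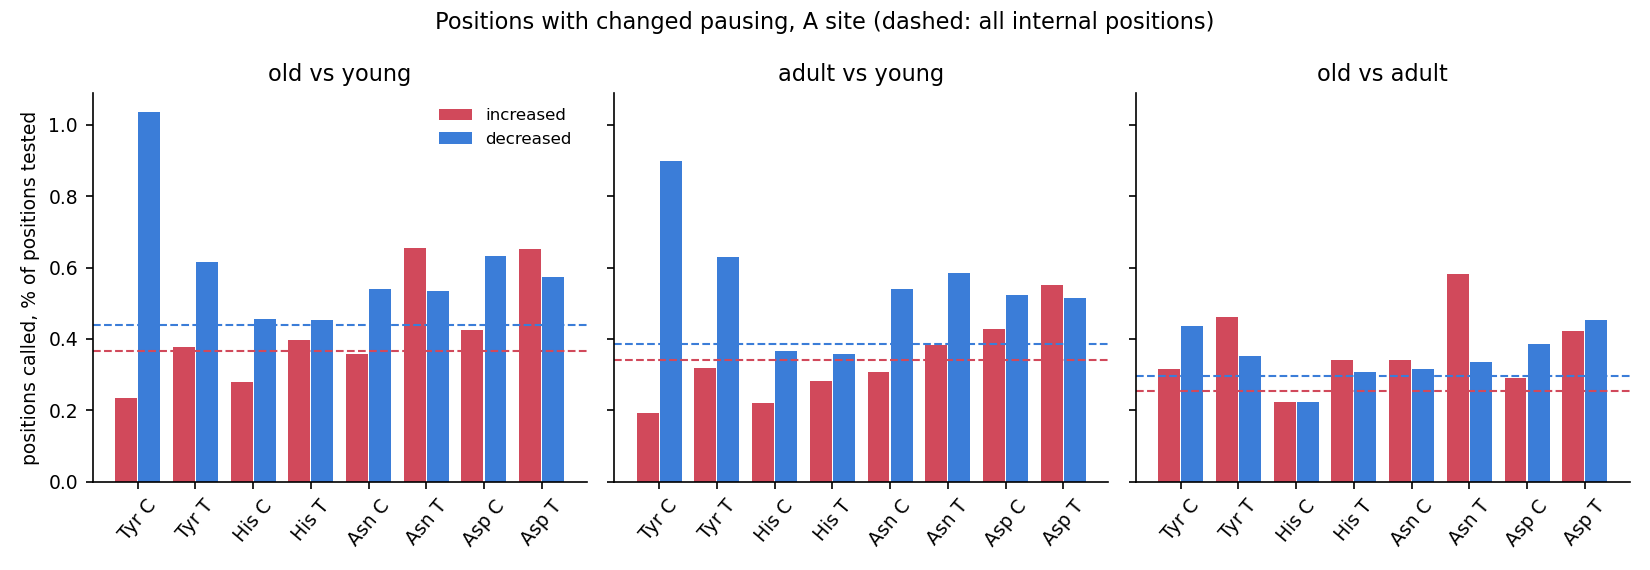
Bars give the percent of A-site positions called increased (red) or decreased (blue) by Fisher's exact test for each codon, named by residue and last base, in 3 comparisons, and dashed lines the percent over all internal positions. C-ending tyrosine codons have the tallest decreased bar, 1.04% in old vs young and 0.899% in adult vs young.

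The largest called change of a residue in old vs young was taken among positions with at least 10 reads in each age and the same direction in 4 of 4 pairs of libraries. The decreased aspartate position and the increased asparagine and aspartate positions are shown because they had the largest ratio of pause scores or the highest pause score in old livers. Capitals mark the member codon.
aspartate GAC, codon 119 of 317, decreased: ctaaagataactGACagctcctgggtg
asparagine AAC, codon 502 of 871, increased: gccatctcaagtAACagaaaagtgaca
aspartate GAC, codon 363 of 529, increased: atgccacagaaaGACctcctgggtcac

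The decreased GAC position had 246 and 173 reads in the young pools, 2060 and 38 in the adult pools, and 1 and 10 in the old pools. Its pause score was 2.43 and 1.04 in the young pools, 4.30 and 0.815 in the adult pools, and 0.0052 and 0.013 in the old pools, so young exceeded old 137-fold (exact 95% interval from counting 75.8 to 277). The increased AAC position rose from 18 reads in young to 195 in old libraries (pause scores 0.282 and 0.0521 against 1.25 and 1.11, 7.34-fold, interval 4.52 to 12.6).

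The increased GAC position had pause scores of 2.81 and 4.38 in the young pools, 9.93 and 11.05 in the adult pools, and 26.7 and 9.01 in the old pools (4.79-fold, interval 3.34 to 6.97). The largest increase of a histidine position lay 4 codons downstream in the same transcript, at CAC codon 367, with 1.76 and 3.44 in young against 15.4 and 8.69 in old libraries, so these 2 positions are not independent. At the GAC position both adult libraries exceeded both young ones, and at the CAC position the adult libraries (5.79 and 2.69) overlapped them. The largest tyrosine increase, at TAC codon 244 of 482, was from 0.952 and 0.973 in young to 4.35 and 3.76 in old libraries, but rested on 12 reads in old livers, and adult replicate 2 had 1 read there.

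The members differed in what followed them, which the rule did not use. G was the first base of the next codon after 49.6% of TAT but 20.3% of TAC positions, after 40.3% of CAT but 19.8% of CAC, after 51.1% of AAT but 21.04% of AAC, and after 54.4% of GAT but 19.9% of GAC. A followed 35.9% to 37.6% of C-ending and 11.9% to 15.5% of T-ending members. C- and T-ending members were therefore read in unlike surroundings, and the ratios moved with the next base. At the P site tyrosine was -0.27 before A, -0.20 before C and -0.27 before G, but 0.11 (range over libraries 0.050 to 0.18) before T, with C higher there in 6 of 6 libraries. Asparagine was -0.39 before G and 0.011 before T, and aspartate -0.38 before A and -0.063 before T.

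At the A site aspartate was below 0 before each of the 4 bases (-0.22 to -0.11), lower in each than over all positions together (-0.045). Asparagine was -0.18 before C and -0.0012 before G. Split by the third base of the previous codon, the A-site aspartate ratio was 0.038 after T, with C higher in 5 of 6 libraries. After the other bases it was -0.092 to -0.016. In this split asparagine ran from -0.034 to 0.077, histidine from 0.049 to 0.22 and tyrosine from 0.070 to 0.25. The ratios were therefore also taken within the same pair of neighbouring codons, a comparison added after the data had been seen, which used 358853 of the member positions. At the A site tyrosine was then 0.17 and 0.14 in the young pools, 0.098 and 0.0080 in the adult pools, and 0.0058 and -0.0041 in the old pools, so that C exceeded T in the young libraries and the old libraries were near 0. The mean was 0.070 for tyrosine (limma adjusted p = 4.3e-05) and 0.065 for histidine (2.1e-04), and it turned to T higher in 6 of 6 libraries for asparagine (-0.083, 2.3e-06) and grew to -0.15 for aspartate (3.0e-10). All 4 pairs were called, beside 68.8% of the 16.

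Old minus young within the same neighbouring codons was -0.16 for tyrosine (limma adjusted p = 0.0014), the single call among the 16 pairs (6.25%). Histidine was -0.094 (0.071), asparagine -0.063 and aspartate -0.065 (0.14 each). Among the other pairs arginine CGC over CGT was -0.096 (0.058) and cysteine TGC over TGT -0.085 (0.071). All 16 pairs were again below 0 (median -0.060). The P-site ratios moved little, to -0.21, -0.36, -0.29 and -0.23 for tyrosine, histidine, asparagine and aspartate, with T higher in 24 of 24 values, and all 4 were called beside 87.5% of the 16. At the E site tyrosine became 0.12 with C higher in 6 of 6 libraries (adjusted p = 3.7e-13), and histidine, asparagine and aspartate were smaller in size at -0.075, -0.026 and -0.028, with T higher in 6, 4 and 5 of 6 libraries (4 called, beside 81.2%). Tyrosine (0.090) and aspartate (0.087) were then called higher in old than in young at the E site, each at adjusted p = 0.022, beside 12.5% of the 16 pairs.

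Within the covered transcripts, splits by place along the coding sequence and by coverage moved the A- and P-site ratios less. Weighting by coverage and a minimal coverage filter moved some A-site ratios further, as given in the last section. Over the first, middle and last of 3 equal parts of the coding sequence the A-site tyrosine ratio was between 0.16 and 0.19 and its old minus young difference between -0.18 and -0.16. Over 3 equal groups of transcripts by coverage the ratio was between 0.14 and 0.21 and the difference between -0.19 and -0.16. Histidine kept a positive A-site mean in each of them (0.080 to 0.13 by place, 0.086 to 0.11 by coverage), aspartate a negative one (-0.068 to -0.019 over both), and asparagine stayed between -0.020 and 0.023. At the P site every residue was below 0 in every part and group, from -0.38 to -0.18.

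High positions followed the mean only in part. At equal depth TAC had a share of A-site positions over a pause score of 6 of 2.52% and 2.29% in the young pools, 1.57% and 2.403% in the adult pools, and 1.02% and 1.05% in the old pools, so that old lay below the other ages. All 61 codons together went from 2.20% and 1.70% in young to 1.137% and 1.198% in old libraries, and the share of TAT went from 1.84% and 1.49% to 0.886% and 0.913%. Equal depth here means equal total internal reads, so depth over the less abundant transcripts stayed unequal. Over all 61 codons the share was highest in adult replicate 2 and young replicate 1. In these the 10 most abundant transcripts took the most reads (62.3% and 60.5%). Whether this gave the order of ages was not tested. Aspartate codons held the largest shares of the 8, with GAT at 3.59% and 2.95% in the young pools, 2.50% and 4.95% in the adult pools, and 2.38% and 2.51% in the old pools.

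C-ending codons were the more common of each pair. In all coding sequences C made up 68.4% of tyrosine, 66.0% of histidine, 69.7% of asparagine and 59.6% of aspartate codons, and 69.6%, 67.6%, 72.1% and 60.8% among the members. Weighted by the footprints of each transcript, the share was lower in every library, at 61.3% to 67.0% for tyrosine, 61.8% to 63.4% for histidine, 66.2% to 68.2% for asparagine and 55.1% to 59.0% for aspartate. The tyrosine share was 61.3% and 63.9% in the young pools, 65.2% and 62.3% in the adult pools, and 64.8% and 67.0% in the old pools. Its old libraries lay above its young ones and overlapped the adult ones. The 10 most abundant transcripts weigh on this share. They took 60.5% and 48.2% of the reads in the young pools, 40.1% and 62.3% in the adult pools, and 40.4% and 25.2% in the old pools. Their part in the order of ages was not tested.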

How the data were processed

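The deposited files hold counts of ribosome footprints per codon of each transcript, raw and 1 file per library. The submitters' processing notes name CASAVA 1.8, cutadapt 1.4.2 and Bowtie 1.3.1, and the study's methods describe a library of the longest transcript of each gene, an alignment that allowed 2 mismatches and kept uniquely placed reads only, and a filter on periodicity of fragment lengths. Footprints from stretches shared by near-identical genes were therefore dropped, so such stretches can read low. The methods name an assembly for other data types of the study and none in their section on the footprints. Of the transcript identifiers 0 could be matched to gene names. Depth per library was 22617158 to 39738019 footprints. Codons with an undetermined base (3376) were left out.

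Reads were divided by the internal mean per codon of the transcript in each library, and these pause scores were averaged per codon. The reading of a codon in the A site used the reads 1 position before it, in the P site those at it and in the E site those 1 position after it. The log2 mean pause scores of 61 codons and the log2 ratios of 16 pairs were fitted with limma 3.58.1 (R 4.3.3), with Benjamini-Hochberg adjustment within a site and comparison at 0.05. Positions were tested with Fisher's exact test on summed reads (own code in Python 3.11.15 with numba 0.67.0) and with edgeR 4.0.16. The exact intervals were taken with scipy 1.17.1. The codon fit was tested on simulated data, where 4 of 4 changed codons were recovered and 0 of the others called. The simulation drew the noise of each codon independently, which real libraries need not do. Its noise and shifts were set values, not estimates from these libraries, and most shifts were larger than the change of TAC. The recovery therefore does not give the power of the fit in these data. The fit of 16 pairs was not simulated.

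Positions shown were, per codon, the highest mean A-site pause score, and per residue and direction the largest called change in old vs young. Of these 8 largest changes, 3 are not reported here. The members and lists were chosen with earlier results of these data known. Samples were grouped by their labels. Deviations from the age means correlated between libraries of the same replicate number at 0.306, 0.431 and 0.113 over 183 values. With 2 libraries per age the sign of each correlation depends on the numbering, and the values are not independent. These correlations therefore cannot establish a pairing, and the labels name no shared batch. A fit with replicate number as a block was used only as an alternative. The other alternatives varied the coverage filter, ends, depth, averaging, site assignment and test, and left out each library.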

Additional observations from a re-analysis of the deposited data

Results flagged for a closer look

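The direct tests of the ratio of C- to T-ending codons between ages gave 3 differences past the threshold. The A-site ratio of tyrosine differed between old and young livers (log2 difference -0.18, limma adjusted p = 5.4e-05), and each of the 2 old libraries lay below each of the 2 young ones. That order also held in the 12 pairs that queuosine tRNAs do not read, except for phenylalanine and leucine. The A-site ratio of histidine also differed between old and young livers (-0.089, adjusted p = 0.043), and the A-site ratio of tyrosine differed between adult and young livers (-0.12, adjusted p = 0.016). The histidine difference and the adult difference each lost their call without some single libraries. With the deposited codon read as the A site, none of the 3 was called. The limma adjusted p was then 0.71 for both old vs young differences and 0.54 for tyrosine in adult vs young.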

How the results depend on the processing

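Of 418 values from alternative settings over 37 results, 336 kept their direction and their side of the threshold (or stayed within 1.5 times of a count), 29 lost and 16 gained significance, 25 turned sign and 12 counts moved further. Of 222 values with 1 library left out, 194 were unchanged in this sense. The cause of a change was not tested, except that reading the deposited codon as the A site shifts every site by 1 codon.

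With that shift the mean ratios became -0.22 for tyrosine, -0.36 for histidine and -0.33 for asparagine at the A site, 0.015 for tyrosine at the P site, and 0.18, -0.0076, 0.12 and -0.018 for tyrosine, histidine, asparagine and aspartate at the E site. The A-site old vs young differences became -0.066 for tyrosine and -0.087 for histidine, both no longer called (limma adjusted p = 0.71 each), and 0.0075 for aspartate. The adult vs young ones became -0.10 for tyrosine, no longer called (limma adjusted p = 0.54), and 0.021 for histidine. The P-site old vs young ones became 0.091, 0.073 and 0.089 for tyrosine, histidine and asparagine, and TAC became 0.024. The E-site old vs young one became 0.13 for aspartate and was then called, so the shift also gained a call.

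The A-site asparagine mean, near 0, was 0.078 with coverage weights, 0.015 with transcripts averaged first, 0.0055 with scores capped at 6, 0.0045 over 2 reads per codon, 0.012 with coverage in every library, 0.025 with minimal coverage and -0.083 within the same neighbouring codons (chosen after seeing the data). The E-site tyrosine mean was -0.0012 with transcripts averaged first, -0.0054 over 2 reads per codon, -0.0026 with coverage in every library and 0.12 within the same neighbouring codons. Coverage weights also gave -0.0078 for the A-site histidine mean, and minimal coverage -0.036 for the aspartate one (no longer called).

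The calls lost with the shifted A site are given above. Of the A-site old vs young differences, tyrosine also lost its call with minimal coverage (-0.11). Histidine lost it with 50 codons left out (-0.082), coverage in every library (-0.073), minimal coverage (-0.075), the same neighbouring codons (-0.094) and limma with trend and robust variance (-0.089). Asparagine was called with coverage weights (-0.14), transcripts averaged first (-0.084), over 2 reads per codon (-0.068), coverage in every library (-0.077) and limma with trend and robust variance (-0.065), and was 0.020 with minimal coverage. Aspartate was called over 2 reads per codon (-0.063). In adult vs young tyrosine lost its call with coverage weights (-0.15), minimal coverage (-0.040), the same neighbouring codons (-0.10) and limma with trend and robust variance (-0.12), while minimal coverage gave 0.00051 for histidine and 0.031 for asparagine. The P-site aspartate difference was -0.0097 at equal depth and -0.019 with minimal coverage, and the E-site differences of tyrosine (0.090) and aspartate (0.087) were called within the same neighbouring codons.

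With the replicate block, A-site histidine old vs young (-0.089, adjusted p = 0.16) and tyrosine adult vs young (-0.12, 0.11) lost their call, and A-site asparagine (-0.065, 0.047), A-site aspartate (-0.064, 0.047) and E-site aspartate (0.12, 0.015) old vs young gained one. It changed no other call.

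Member positions called by Fisher's exact test fell at equal depth to 911 increased and 1378 decreased in old vs young, 680 and 1030 in adult vs young, and 751 and 776 in old vs adult, and edgeR called 0 in each. The shares called over all positions at equal depth are not given here, so this fall cannot be called particular to the members. TAC in old vs young lost its call with coverage weights (-0.19), minimal coverage (-0.18) and edgeR on summed reads (-0.19). TAC in adult vs young lost it with coverage weights (-0.20), edgeR on summed reads (-0.20) and the shifted A site (-0.041), and GAT at the E site in old vs adult with coverage weights (-0.16), transcripts averaged first (-0.15), scores capped at 6 (-0.073) and edgeR on summed reads (-0.16).

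With 1 library left out, ranges that crossed 0 were -0.0042 to 0.0019 for the A-site asparagine mean, -0.0042 to 0.035 for the E-site tyrosine mean, -0.070 to 0.028 for histidine and -0.041 to 0.0046 for aspartate in adult vs young at the A site, and -0.066 to 0.021 for asparagine and -0.021 to 0.036 for aspartate in old vs young at the P site. Histidine old vs young ranged from -0.13 to -0.048 and tyrosine adult vs young from -0.16 to -0.075, losing their call where the report says so. The A-site tyrosine old vs young difference kept its call in all 6 fits (-0.19 to -0.16). Counts of members ranged from 805 to 1528 increased and 1228 to 2576 decreased in old vs young, 620 to 1440 and 1179 to 2489 in adult vs young, and 945 to 1286 and 809 to 1560 in old vs adult. No share over all positions stands beside these ranges, so they are not a result about the members. Most positions had too few reads to enter edgeR, which called 0 of the 232531 that did. Why it called none was not tested.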
